A study of Mus musculus with 18 samples.

Results

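Arid5a, Csrnp1, Acsl1 and Gm26448 are 4 of the 43629 genes counted in AT3 cells, and were selected because their level was higher with IFNγ than with DMSO and was not, or hardly, lower when A-241 was given with IFNγ. Both differences that selected them are therefore given as a description, with no p-value for the 4 genes, and the call of IFNγ against DMSO is used only to define the induced genes among which they are ranked. AT3 is a mouse mammary carcinoma line, here the model of triple-negative breast cancer (TNBC), and gene expression was measured by QuantSeq, a method that sequences the 3′ ends of polyadenylated RNA. Cultures of this line received DMSO, A-241 at 250 nM or A-485 at 1000 nM, and after 1 h either recombinant IFNγ (1 ng/mL) or none, so that each library stands for 3 h with the inhibitor or vehicle and, where given, 2 h with IFNγ. The 6 conditions, called DMSO, A-241, A-485, IFNγ, A-241+IFNγ and A-485+IFNγ, have 3 libraries each. The sample labels call the triplicates biological and the methods of the study call them technical, so that p-values measure the spread between libraries, which may be technical.

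IFNγ binds its receptor at the cell surface, where JAK kinases pass the signal on, and a first wave of genes is switched on through GAS elements, among them the transcription factor Irf1. P300 and CBP are closely related lysine acetyltransferases that transcription factors recruit to enhancers and promoters, and A-241 and A-485 are chemically distinct inhibitors of their catalytic domain. Arid5a is a protein with an ARID domain that binds stem-loops in inflammatory mRNAs such as those of Il6 and Stat3 and protects them from decay. Csrnp1 is a nuclear protein rich in cysteine and serine, first described as a gene switched on by AXIN1. Acsl1 couples long-chain fatty acids to coenzyme A, the step that commits them to oxidation or lipid synthesis. Gm26448 is annotated as a small nucleolar RNA, a class that guides the modification of ribosomal and other RNAs and is cut out of the introns of host genes.

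All coordinates are of GRCm38 with GENCODE vM21 genes. Arid5a lies on the plus strand of chromosome 1 from 36307733 to 36324029, and no other gene shares its exons. Csrnp1 lies on the minus strand of chromosome 9 from 119971163 to 119984658, inside the span of Cx3cr1, with which it shares 0 exon bases, while 224 exon bases are shared with the antisense gene 1700019L13Rik. Acsl1 lies on the plus strand of chromosome 8 from 46471037 to 46536051 and shares 1039 exon bases with Gm45244 on the opposite strand. No counts of 1700019L13Rik or Gm45244 were used here. Since reads were counted without a strand option, reads from these shared bases cannot be told apart. Gm26448 lies on the plus strand of chromosome 9 from 120129351 to 120129553, within an intron of Rpsa, which encodes a protein of the small ribosomal subunit. It is 203 bases long and shares 0 exon bases with Rpsa.

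The start sites of 3 of the 4 genes were matched to RefSeq promoter windows (GRCm38.p6) of 250 bases before to 50 bases after the start, 1 window for Arid5a, 4 for Csrnp1 and 2 for Acsl1. Both strands were searched for the GAS element TTCNNNGAA, the core of the interferon-stimulated response element (ISRE, bound by IRF factors) GAAANNGAAA, the AP-1 site TGAGTCA, the cyclic AMP response element TGACGTCA, the GC box GGGCGG and the TATA box TATAAA. A gene was counted as holding a motif if any of its windows did. The ISRE core was in none of the 7 windows of Arid5a, Csrnp1 and Acsl1. It was held by 3.44% of all 32851 windows and by 3.73% of the 8283 fitted genes with a window. Of the 106 IFNγ-induced genes with a window 42 held it (39.6%). The GAS element was held by 8.3% of all windows, 8.16% of these fitted genes and 20.8% of these induced genes. It was found once, in window 1 of Csrnp1, 37 bases after the start. The AP-1 site was held by 5.2% of all windows, 4.18% of these fitted genes and 13.2% of these induced genes. It was found 2 times in window 4 of Csrnp1, at positions -102 and -14 from the start. The window of Arid5a and window 1 of Acsl1 held 3 and 7 GC boxes, a motif present in 35.7% of all windows and in 71.8% of the 8283 fitted genes with a window (48.1% of the induced ones), and window 2 of Acsl1 held none of the 6 motifs. Window 3 of Csrnp1 held 5 GC boxes. In these windows no match of one motif overlapped that of another, although a pair of the GC boxes of Acsl1 overlapped each other. A match is a run of letters only. The sequence before the start is shown for Arid5a, Acsl1 and window 4 of Csrnp1, with GC boxes in capitals for Arid5a and Acsl1 (4 of the 7 of Acsl1 lie before the start) and AP-1 sites for Csrnp1. A short stretch after the start of window 1 of Csrnp1 shows the GAS element in capitals.
Arid5a, chr1:36307483-36307732, plus strand: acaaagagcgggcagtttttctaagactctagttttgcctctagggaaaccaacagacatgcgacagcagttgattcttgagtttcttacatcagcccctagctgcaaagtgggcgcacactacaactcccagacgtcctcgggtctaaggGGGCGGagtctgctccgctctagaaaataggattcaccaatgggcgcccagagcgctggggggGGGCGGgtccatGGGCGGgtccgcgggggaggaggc
Csrnp1, window 4, chr9:119983024-119983273, minus strand: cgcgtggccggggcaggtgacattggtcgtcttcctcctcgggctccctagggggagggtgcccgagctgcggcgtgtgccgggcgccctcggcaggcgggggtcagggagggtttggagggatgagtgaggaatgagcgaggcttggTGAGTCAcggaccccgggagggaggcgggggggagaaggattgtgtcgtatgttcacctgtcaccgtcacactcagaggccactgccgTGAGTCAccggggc
Csrnp1, window 1, 29 bases around the GAS element, chr9:119984693-119984721, minus strand: agggggagggtcgagcTTCCACGAAggct
Acsl1, window 1, chr8:46470787-46471036, plus strand: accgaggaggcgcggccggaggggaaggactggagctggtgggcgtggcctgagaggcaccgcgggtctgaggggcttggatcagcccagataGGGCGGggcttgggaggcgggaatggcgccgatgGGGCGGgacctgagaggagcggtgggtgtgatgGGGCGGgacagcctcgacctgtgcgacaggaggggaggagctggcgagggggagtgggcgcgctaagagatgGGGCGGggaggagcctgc

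The whole of Gm26448 is shown because the reads counted for it must overlap these 203 bases, though they may reach beyond them. Capitals mark the ACA that ends 3 bases before its 3′ end and the 2 matches of ANANNA. These are the letters of the ACA box and the H box of one class of small nucleolar RNA.
Gm26448, chr9:120129351-120129553, plus strand: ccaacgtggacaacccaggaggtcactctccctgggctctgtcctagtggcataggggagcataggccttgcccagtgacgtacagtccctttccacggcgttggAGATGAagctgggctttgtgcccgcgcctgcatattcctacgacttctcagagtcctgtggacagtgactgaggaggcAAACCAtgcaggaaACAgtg

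Between 3417167 and 7856830 counts were obtained per library, and 11964 genes, the 4 genes among them, had enough counts to be fitted. Levels are CPM, counts divided by the library total after TMM scaling, and fold changes are log2 values fitted by edgeR over all 18 libraries, with the standard error (SE). Gm26448 and Acsl1 were counted at low depth, with 266 and 455 counts over the 18 libraries, against 1164 for Csrnp1 and 2815 for Arid5a. DMSO replicate 3 and IFNγ replicate 2 stood apart from the other libraries of their conditions, with a root mean square deviation of log2 CPM across genes of 0.73 and 0.76. This value lay between 0.23 and 0.51 in the remaining libraries. The differences that selected the genes, the changes with each inhibitor alone and the response with A-241 minus that with DMSO are also given without both. In these 2 libraries the gene Gm42418 took 20.1% and 23.05% of the counts, against 7.11% to 16.2% in the remaining ones. Epithelial markers were found at a summed 963 to 1769 CPM per library, although Krt19 and Cldn4 had 1 and 7 counts over all libraries. Leukocyte, fibroblast and endothelial lists stayed between 0.21 and 20.2 CPM, with Adgre1, Lum, Cdh5 and Tek at 0 counts. In bulk cultures, fewer cells with an RNA and less RNA per cell cannot be told apart.

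Arid5a had 17.9, 15.1 and 23.4 CPM in the DMSO libraries and 37.4, 66.6 and 35.4 CPM with IFNγ. With A-241 alone it had 9.44, 13.0 and 12.6 CPM, and with A-485 alone 7.57, 7.81 and 11.1 CPM. With A-241+IFNγ the libraries lay at 50.1, 41.2 and 52.1 CPM, and with A-485+IFNγ at 52.7, 46.4 and 55.2 CPM. All 9 libraries with IFNγ were thus above all 9 without it, while all libraries with an inhibitor alone were below the DMSO libraries. The order of the means was A-485+IFNγ (51.4 ± 4.5 CPM, SD, n = 3), A-241+IFNγ (47.8 ± 5.8), IFNγ (46.5 ± 17.4), DMSO (18.8 ± 4.2), A-241 (11.7 ± 1.9) and A-485 (8.84 ± 2.0), where the first 3 overlapped with each other in their libraries, as did the last pair. Arid5a was thus the gene of the 4 that was lower with each inhibitor at steady state. Its overlap with IFNγ alone once IFNγ was added rests on the outlying IFNγ replicate 2 (66.6 CPM). The IFNγ libraries at 37.4 and 35.4 CPM lay below all libraries with an inhibitor and IFNγ. That Arid5a was not lower with A-241+IFNγ than with IFNγ was part of the selection.

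Csrnp1 had 3.37, 3.46 and 0.69 CPM with DMSO, where the last value rests on 2 counts, and 13.4, 13.4 and 20.9 CPM with IFNγ. With A-241 alone it had 10.7, 9.59 and 8.83 CPM, so that the 3 libraries lay above those of DMSO and of A-485 alone, which had 2.99, 4.0 and 4.17 CPM. With A-241+IFNγ the libraries reached 25.2, 22.1 and 29.8 CPM, above every other library of the series, against 16.0, 19.3 and 14.6 CPM with A-485+IFNγ. A-485+IFNγ overlapped with IFNγ, and A-485 overlapped with DMSO, whereas all other neighbours in the order of means were apart.

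Acsl1 had 2.73, 2.68 and 2.07 CPM with DMSO and 6.62, 9.21 and 6.28 CPM with IFNγ. Its libraries lay at 7.60, 5.37 and 6.38 CPM with A-241+IFNγ and at 5.73, 5.69 and 5.50 CPM with A-485+IFNγ. With A-241 alone they spread over 2.52, 4.40 and 6.31 CPM, the widest relative spread of any condition of this gene, and with A-485 alone they were at 3.35, 2.86 and 3.25 CPM. Each neighbour in the order of means overlapped with the next, from IFNγ through A-241+IFNγ, A-485+IFNγ and A-241 to A-485. DMSO lay apart from A-485 and below it. It overlapped with A-241, whose replicate 1 (2.52 CPM) was below DMSO replicates 1 and 2 (2.73 and 2.68 CPM).

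Gm26448 had 2, 1 and 1 counts in the DMSO libraries, or 0.42, 0.16 and 0.34 CPM. It had 16, 8 and 24 counts with IFNγ (1.96, 2.38 and 4.19 CPM). With the inhibitors alone it had 7, 11 and 7 counts for A-241 (1.47, 2.20 and 1.47 CPM) and 15, 9 and 11 for A-485 (2.64, 1.72 and 2.55 CPM). The libraries of A-241+IFNγ held 30, 25 and 28 counts (6.51, 4.07 and 5.76 CPM) and those of A-485+IFNγ 24, 17 and 30 (4.58, 3.46 and 5.69 CPM). DMSO was apart from all other conditions and below them, while the other neighbours in the order A-241+IFNγ, A-485+IFNγ, IFNγ, A-485 and A-241 overlapped. Since the DMSO libraries hold 4 counts in all, ratios to them are imprecise. The pooled ratio to DMSO was 9.74 with IFNγ, with a 95% exact interval of 3.57 to 37.2 that covers counting error only, 6.03 with A-241 (2.08 to 23.8) and 8.04 with A-485 (2.87 to 31.1).

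**Figure D1:**
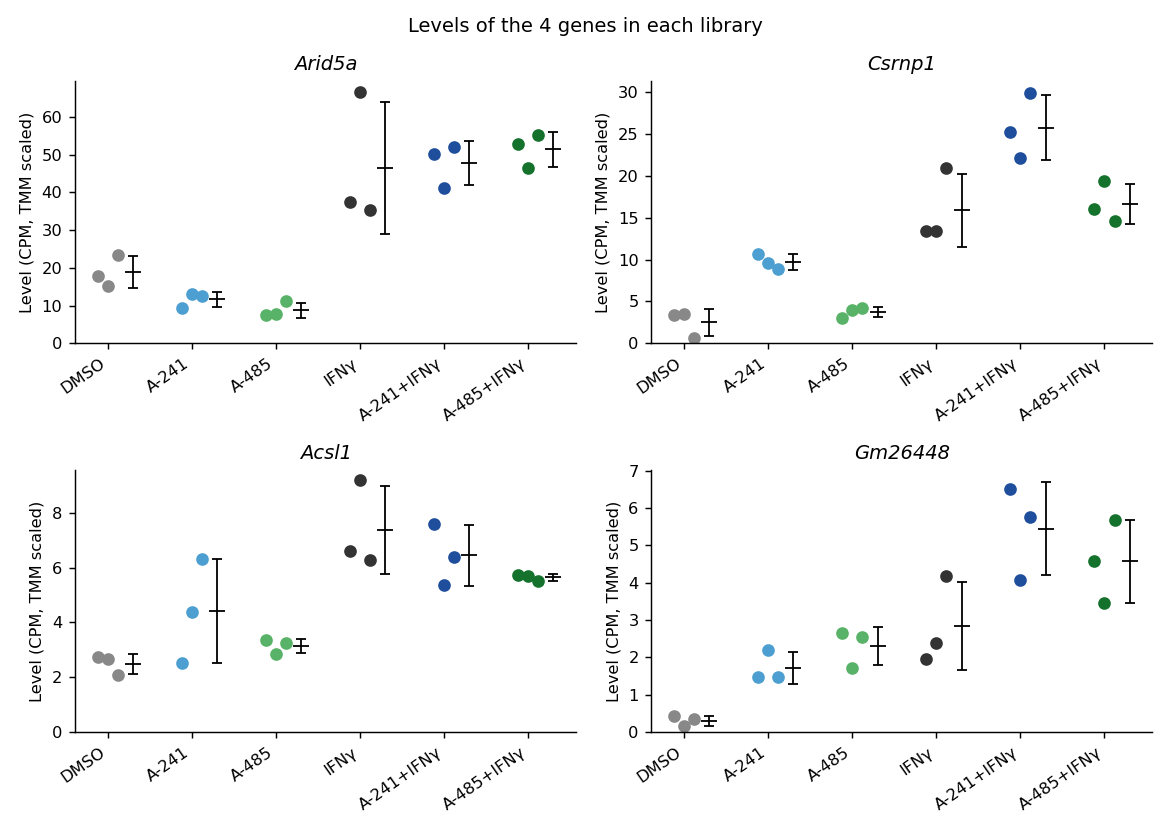
Level of Arid5a, Csrnp1, Acsl1 and Gm26448 in CPM (TMM scaled, vertical axes from 0) in each of 18 libraries, grouped by condition on the horizontal axis, where points are libraries in the order of their replicate numbers and bars beside them are the mean ± SD (n = 3). The libraries with an inhibitor alone lie below DMSO for Arid5a, and those with A-241 alone lie above DMSO for Csrnp1 (8.83 to 10.7 CPM against 0.69 to 3.46) and Gm26448.

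The differences that selected the genes are set side by side as fitted values. IFNγ against DMSO gave a log2 fold change of 1.31 (SE 0.25) for Arid5a, 2.54 (SE 0.33) for Csrnp1, 1.51 (SE 0.29) for Acsl1 and 3.19 (SE 0.51) for Gm26448. A-241+IFNγ against IFNγ gave 0.05 (SE 0.24) for Arid5a, 0.69 (SE 0.27) for Csrnp1, -0.18 (SE 0.27) for Acsl1 and 0.93 (SE 0.33) for Gm26448. IFNγ replicate 2 is the highest Arid5a library of its condition. Without IFNγ replicate 3 the second value of Arid5a was -0.11. Without IFNγ replicate 2 the log2 fold change of Arid5a was 0.98 for IFNγ against DMSO and 0.39 for A-241+IFNγ against IFNγ, and without DMSO replicate 3 as well these were 1.14 and 0.38. Without both libraries IFNγ against DMSO gave 2.29 for Csrnp1, 1.24 for Acsl1 and 3.33 for Gm26448. The values of A-241+IFNγ against IFNγ were then 0.59 for Csrnp1, -0.02 for Acsl1 and 0.85 for Gm26448. Without IFNγ replicate 3 that of Gm26448 was 1.34.

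Of the 137 genes called higher with IFNγ (edgeR, adjusted p below 0.01, and more than 1 on the log2 scale above DMSO), Gm26448, Csrnp1 and Arid5a took ranks 1, 2 and 3 by the log2 fold change of A-241+IFNγ against IFNγ, and Acsl1 took rank 7. The median of the 137 was -1.74. Between Arid5a and Acsl1 stood 3 genes that were not selected, Mtfr2 (-0.01), Ifih1 (-0.04), a sensor of viral double-stranded RNA, and Slfn9 (-0.14). Just below Acsl1 came Ifnar2 (-0.21), a chain of the type I interferon receptor, Sav1 (-0.25) and Eif2ak2 (-0.28), the kinase PKR. At the other end, Gm12185 had 51, 21 and 36 counts with IFNγ and 0, 0 and 1 with A-241+IFNγ, and Gm12250 had 371, 250 and 266 counts with IFNγ and 3, 6 and 2 with A-241+IFNγ. Among known IFNγ targets the same difference was -0.87 for Irf1, -1.37 for Socs1, -2.01 for Gbp2 and -6.05 for Cxcl9. For A-485+IFNγ against IFNγ, with libraries of IFNγ shared, Gm26448 stood at rank 2 (0.69), Arid5a at 6 (0.16), Csrnp1 at 11 (0.06) and Acsl1 at 38 (-0.36), where the median of the 137 was -0.78.

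In the absence of IFNγ, A-241 went with a lower level of Arid5a and a higher one of the other 3 genes. Against DMSO, whose libraries also entered the selection, the log2 fold change was -0.67 (SE 0.26) for Arid5a, 1.83 (SE 0.33) for Csrnp1, 0.79 (SE 0.31) for Acsl1 and 2.48 (SE 0.55) for Gm26448, while the median of the 137 induced genes was -0.05. With A-485 the values were -1.08 (SE 0.26), 0.44 (SE 0.36), 0.31 (SE 0.31) and 2.89 (SE 0.52). Without both outlying libraries those with A-241 were -0.53, 1.46, 0.66 and 2.53, and those with A-485 were -0.94, 0.08, 0.19 and 2.95. For Acsl1 the value depended on A-241 replicate 3, without which it was 0.45. The summed fibroblast list, with 1 of 5 markers fitted and Lum at 0, lay between 2.83 and 3.58 CPM with DMSO and between 0.21 and 1.47 CPM with A-241. The epithelial list lay between 1520 and 1769 CPM with DMSO and between 980 and 1024 CPM with A-241, and the mesenchymal list between 691 and 748 CPM and between 434 and 490 CPM. The part of these shifts in the results was not tested. A higher level with A-241 alone was not particular to the selected genes. Of the 137 induced genes 61 lay above 0 for A-241 against DMSO. The unselected genes ranked around Acsl1 had 2.02 (Mtfr2), 0.70 (Ifih1), 0.65 (Slfn9), 0.48 (Ifnar2), 0.28 (Sav1) and 0.46 (Eif2ak2). Mtfr2, chosen for this mention after its values were seen, had a mean of 3.18 CPM with DMSO and 13.0 CPM with A-241. Its mean was 12.01 CPM with IFNγ and 12.1 CPM with A-241+IFNγ.

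**Figure D2:**
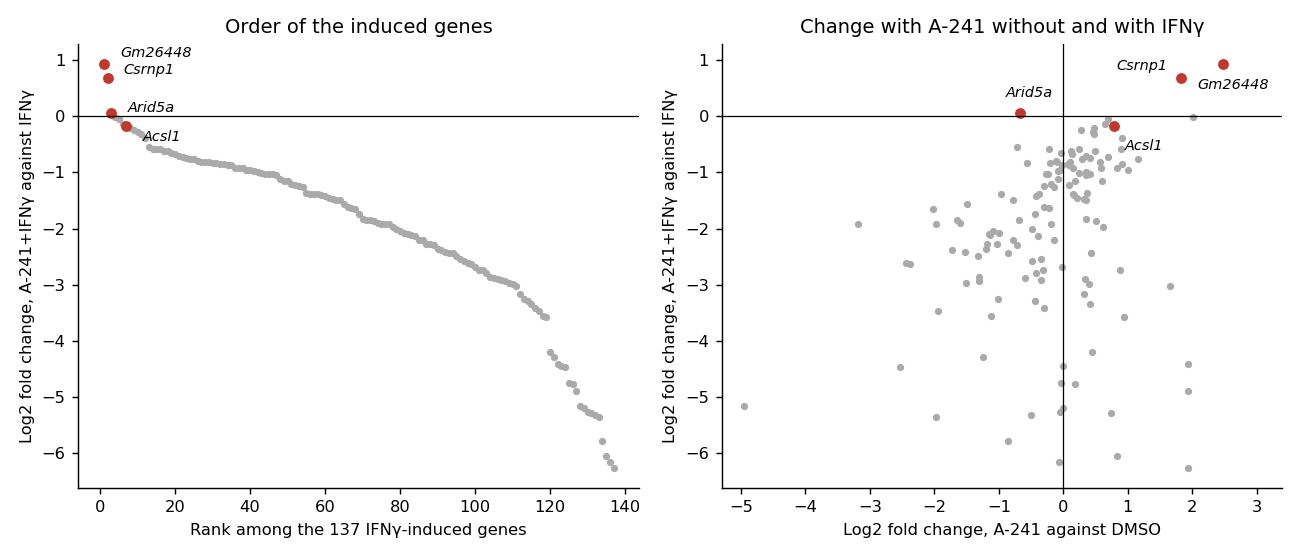
Log2 fold change of A-241+IFNγ against IFNγ (vertical axes) for the 137 IFNγ-induced genes, by rank (left) and against the log2 fold change of A-241 against DMSO (right), with the 4 genes in red. Gm26448, Csrnp1 and Arid5a lie above 0 at ranks 1 to 3, Acsl1 lies at -0.18 and rank 7, and only Arid5a of the 4 lies left of 0 in the right plot.

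The change from the inhibitor alone to the inhibitor with IFNγ was computed as well, since it need not follow the level reached. A-241+IFNγ against A-241, which shares the A-241+IFNγ libraries with the selection, gave a log2 fold change of 2.03 (SE 0.25) for Arid5a, 1.40 (SE 0.28) for Csrnp1, 0.54 (SE 0.28) for Acsl1 and 1.64 (SE 0.35) for Gm26448, where the median of the 137 induced genes was 1.11. The response with A-241 minus the response with DMSO was 0.72 (SE 0.35) for Arid5a, -1.14 (SE 0.43) for Csrnp1, -0.97 (SE 0.40) for Acsl1 and -1.55 (SE 0.65) for Gm26448. Without both outlying libraries these were 0.91, -0.88, -0.69 and -1.68. They contain libraries of both differences used for selection and were not tested. The response with A-241 minus that with DMSO equals A-241+IFNγ against IFNγ minus A-241 against DMSO. The selection required the first of these to be not, or hardly, negative. The sign of the result therefore follows largely from the change with A-241 alone. In these terms the fold response of Csrnp1, Acsl1 and Gm26448 was smaller, from a higher level without IFNγ. That of Arid5a was larger, from a lower one. For Acsl1 the higher level is one of fitted values, since its libraries with A-241 overlapped with those of DMSO. The response of Acsl1 was 0.26 without A-241 replicate 1 and 0.89 without A-241 replicate 3.

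The A-485 libraries played no part in the selection, so the response to IFNγ with A-485 was tested. In this comparison 89 of 11964 genes were higher (0.744%) and 7 were lower (0.0585%). Of the 4 genes, 2 were called higher, Arid5a and Csrnp1, and 0 lower. Arid5a rose with A-485+IFNγ against A-485 by a log2 fold change of 2.55 (SE 0.26, adjusted p = 2.51e-05, edgeR), which is 5.84-fold. Csrnp1 rose by 2.16 (SE 0.31, adjusted p = 0.000736, edgeR), or 4.47-fold, and without A-485 replicate 1 its call was lost (2.02, adjusted p = 0.0115, edgeR). In both genes the libraries of A-485+IFNγ were above those of A-485. The change of Acsl1 was 0.84 (SE 0.29, 95% interval 0.23 to 1.44, adjusted p = 0.386, edgeR) and that of Gm26448 was 0.99 (SE 0.34, 95% interval 0.27 to 1.71, adjusted p = 0.39, edgeR). Neither passed the threshold. In all 4 genes the libraries of A-485+IFNγ and A-485 did not overlap. The share of all genes in which they do not was not computed, so this does not set the 4 genes apart. Of the 137 induced genes 136 lay above 0 in the same comparison and 73 were called higher, with a median of 1.68. The summed level of the leukocyte list, 2 of whose 7 markers had enough counts to be fitted, lay between 4.38 and 20.2 CPM with A-485 and between 1.83 and 5.35 CPM with A-485+IFNγ. Gm42418 took 9.56% to 16.2% of the counts with A-485 and 7.38% to 9.45% with A-485+IFNγ. The part of either in these results was not tested.

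**Figure D3:**
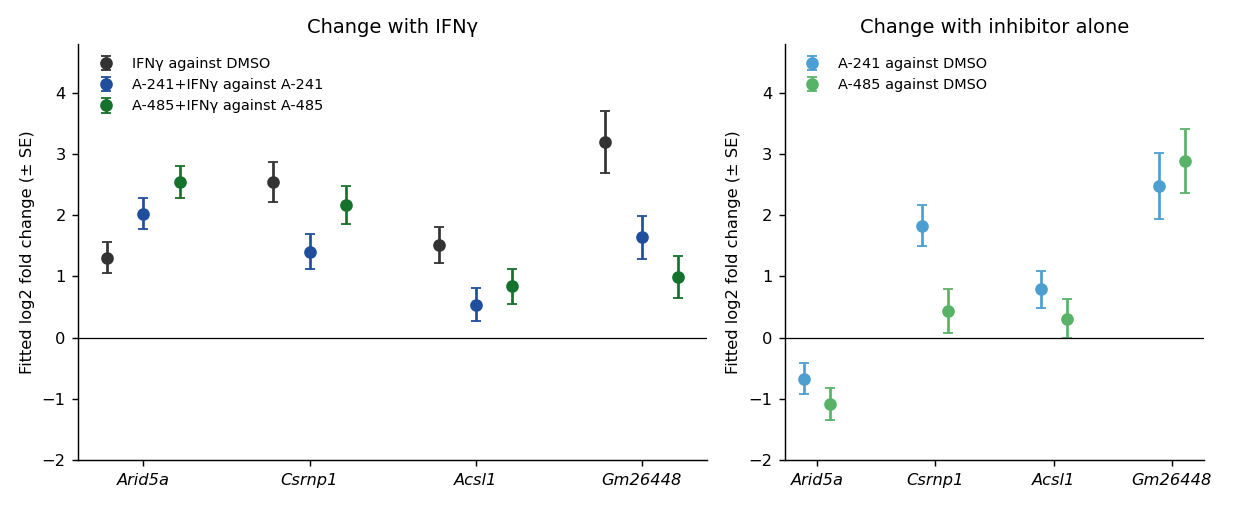
Fitted log2 fold change ± SE of each gene with IFNγ (left) after DMSO, A-241 or A-485, and with an inhibitor alone against DMSO (right). In Arid5a the IFNγ response is 1.31 after DMSO, 2.03 after A-241 and 2.55 after A-485, whereas in the other 3 genes the value after DMSO is the highest.

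The inhibitors themselves were compared without IFNγ in libraries not used for selection, as 1 pair of compounds at different doses (250 nM A-241 and 1000 nM A-485) and the same 3 h. Of all genes 2 were higher with A-241 (0.0167%) and 42 lower (0.351%), and 0 of the 4 genes were called in either direction. Csrnp1 came closest, with a log2 fold change of 1.39 (SE 0.32, 95% interval 0.71 to 2.06, adjusted p = 0.0511, edgeR), and it was the gene with the 17th largest value of 11964. All 3 libraries with A-241 were above those with A-485. The share of all genes so separated was not computed, so this is a description that adds nothing to the test. The call depended on the setting. With only the 6 libraries compared the adjusted p was 0.00611 (edgeR), without both outlying libraries it was 0.00195 (edgeR), and DESeq2 gave 0.00174. With 1 of the 6 libraries left out of the fit over all conditions it lay between 0.143 and 0.271 (edgeR). The differences for Arid5a (0.41, 95% interval -0.15 to 0.97), Acsl1 (0.48, -0.14 to 1.11) and Gm26448 (-0.41, -1.22 to 0.39) did not pass the threshold, and their adjusted p lay at 0.831, 0.814 and 0.968 (edgeR). With IFNγ present, A-241 against A-485 gave 0.63 (SE 0.27) for Csrnp1 and between -0.11 and 0.24 for the other 3 genes, without a test because the A-241+IFNγ libraries had been used for selection.

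Gm26448 was also set against its host. Rpsa had mean levels between 1687 and 2009 CPM in the 6 conditions, and its libraries ranged from 1499 to 2241 CPM. For each 1000 counts of Rpsa there were 0.18 ± 0.08 counts of Gm26448 with DMSO (SD, n = 3), 0.98 ± 0.34 with A-241 and 1.26 ± 0.22 with A-485. With IFNγ there were 1.54 ± 0.49, with A-241+IFNγ 2.71 ± 0.50 and with A-485+IFNγ 2.29 ± 0.60. In every library outside DMSO the ratio was above that of each DMSO library, whereas the host itself was nearly level. Gm24044 and the small nucleolar RNA Snora62 were chosen for mention after their values were seen. Gm24044 had 2.11 ± 1.30 CPM with DMSO, 2.46 ± 0.73 CPM with IFNγ and 2.79 ± 0.95 CPM with A-241+IFNγ, with overlapping libraries, and Snora62 had 1 count in the 3 DMSO libraries, 1 with IFNγ, 6 with A-241, 6 with A-485, 9 with A-241+IFNγ and 15 with A-485+IFNγ. Mature small nucleolar RNAs generally carry no poly(A) tail, which the library kit primes on, and which form of Gm26448 was counted was not tested.

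**Figure D4:**
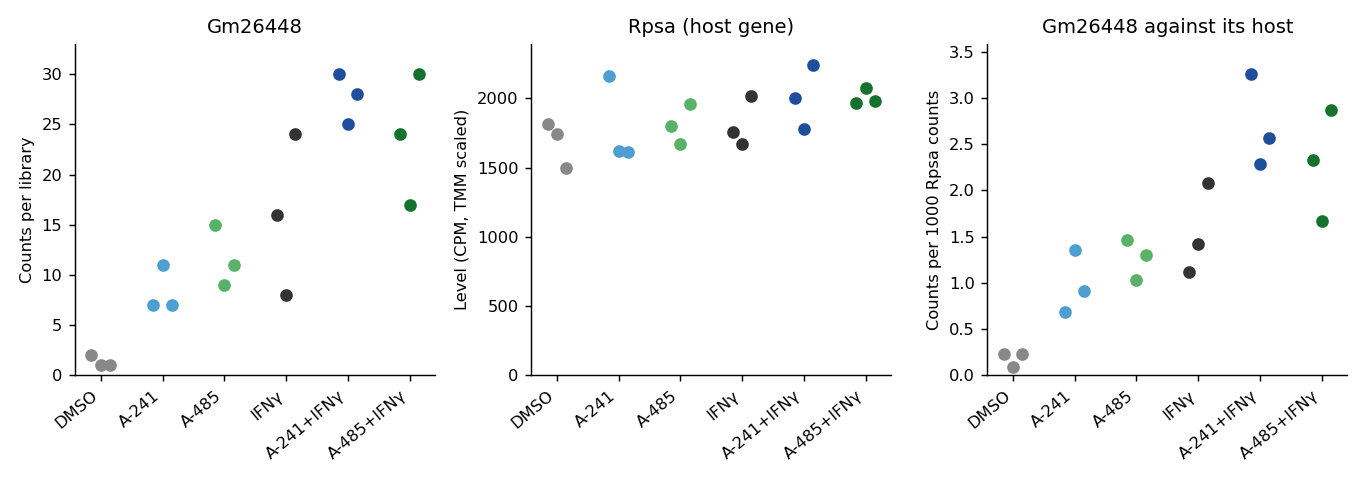
Gm26448 in counts per library (left), Rpsa in CPM (middle) and Gm26448 per 1000 counts of Rpsa (right), in the 18 libraries by condition, with vertical axes from 0 and points as libraries. Gm26448 holds 1 to 2 counts in each DMSO library and 25 to 30 in each A-241+IFNγ library, while Rpsa stays between 1499 and 2241 CPM.

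Across the 18 libraries, which share conditions and depth, the genes most like each of the 4 by Pearson's r of log2 CPM were named among those with at least 20 counts per library on average. For Arid5a these were Arhgef26 (0.92), Dtx3l (0.91) and Parp14 (0.90), the last pair known partners in ADP-ribosylation and ubiquitination. For A-241+IFNγ against IFNγ the log2 fold change was -0.11 for Arhgef26, -0.84 for Dtx3l and -0.92 for Parp14. For Csrnp1 they were Irf7 (0.89), a transcription factor of the type I interferon response, Rab3ip (0.88) and Fbxo28 (0.88). These had log2 fold changes of 0.03, 0.16 and 0.02 for A-241+IFNγ against IFNγ. For Acsl1 they were Xaf1 (0.88), Stxbp5 (0.87) and Dcp2 (0.85), a decapping enzyme, with -0.76, -0.62 and -0.17. For Gm26448 they were Tor3a (0.88), Adar (0.88), which edits adenosine in double-stranded RNA, and Snora26 (0.85), itself a small nucleolar RNA, with 1.23, 0.14 and 0.59. The 18 libraries include those of A-241+IFNγ and IFNγ, so this difference is not independent of how the genes were picked. Among the 4 genes, which were selected for a shared course over the conditions, r lay between 0.53 and 0.82, and within conditions it lay between -0.44 and 0.47.

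Relatives and pathway partners were described with lists of genes. Of the list on Arid5a and the decay of inflammatory mRNAs, 15 of 21 genes were fitted, and Arid5a alone was called higher in A-485+IFNγ against A-485, with 0 called lower. Its list median was -0.07, against -0.01 over all genes. The paralog Arid5b had a log2 fold change of 0.28 (SE 0.28) in this comparison and of -2.07 (SE 0.32) for A-241 against DMSO, where Arid5a had -0.67. For A-241+IFNγ against IFNγ it had -2.79 (SE 0.32), where Arid5a had 0.05. Stat3, whose mRNA Arid5a binds, had 1.02 (SE 0.49, adjusted p = 0.872, edgeR) with A-485+IFNγ against A-485, and Il6 had 75 counts over all libraries and was not fitted.

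In the list of the Csrnp family and immediate early genes, 25 of 30 were fitted. With IFNγ in the presence of A-485, 3 were called higher, Csrnp1, Jun (1.17, SE 0.13, adjusted p = 4.98e-05, edgeR) and Atf3 (2.17, SE 0.33, adjusted p = 0.00145, edgeR), and 0 lower, with a list median of 0.13. Jun and Atf3, parts of dimeric AP-1 and ATF factors, had -0.67 (SE 0.13) and -0.75 (SE 0.29) for A-241+IFNγ against IFNγ. Of the 25 genes 11 lay above 0 in this difference, with a median of -0.27. Csrnp2 (0.88, SE 0.52) lay above the 0.69 of Csrnp1. So did Fos (2.23, SE 0.36), Egr1 (1.99, SE 0.20) and Nr4a2 (0.74, SE 0.55), chosen after their values were seen. For IFNγ against DMSO Fos had -1.34 (SE 0.38) and Egr1 had -0.67 (SE 0.19), whereas Csrnp1 had 2.54. Csrnp2 was counted 151 times over all libraries and had 0.95 (SE 0.54) for A-241 against A-485, and Csrnp3 had 0 counts.

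In the list on fatty acid activation, transport and oxidation, 19 of 28 genes were fitted and 0 were called in either tested comparison. The median was -0.03 for the IFNγ response with A-485 and -0.01 for A-241 against A-485. The other acyl-CoA synthetases had values near 0 for IFNγ with A-485, with 0.05 (SE 0.17) for Acsl3, -0.03 (SE 0.37) for Acsl4 and 0.12 (SE 0.26) for Acsl5, against 0.84 for Acsl1, and Acsl6 had 0 counts. Acsl3 had -1.27 (SE 0.17) for A-241 against DMSO, opposite in sign to Acsl1.

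Of the STAT3 and NF-κB early targets 19 of 25 were fitted, and with a list median of 0.34 Cebpb alone was called, with -1.08 (SE 0.20, adjusted p = 0.00649, edgeR) with A-485+IFNγ against A-485. Of the IFNγ receptor pathway and its known targets all 30 were fitted and 15 were called higher, with a median of 2.05, among them Irf1, Cxcl9 and Gbp2 (4.87, SE 0.23, adjusted p = 3.44e-09, edgeR). The background for these counts is 0.744% called higher and 0.0585% called lower. In A-241 against A-485, 0 genes of the 5 lists were called.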

How the data were processed

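Per the labels and the study's methods, the authors prepared 3′ mRNA libraries (QuantSeq), demultiplexed reads with bcl2fastq 2.17.1.14, trimmed them with cutadapt 1.7, aligned them to GRCm38/mm10 with HISAT2 2.1.0 and counted them on exons with featureCounts, with a read over several genes counted for each and no strand option. The annotation release is not given in the sources used here. The deposited values are raw counts of 43629 genes in 18 libraries, of which 97.5% were matched to a symbol in GENCODE vM21.

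Genes were filtered with filterByExpr (11964 kept), scaled by TMM and fitted in 1 model with a mean per condition in edgeR 4.0.16 (quasi-likelihood test, R 4.3.3), with Benjamini-Hochberg adjustment over all genes fitted and a threshold of 0.01. DESeq2 1.42.0 and limma 3.58.1 (voom) served as alternatives. Log2 CPM used a prior count of 2. The 4 genes, the lists and the rule for other named genes were chosen with earlier results of these data known. That rule took genes that overlap or host one of the 4, the 3 induced genes ranked next and the 2 ranked last, the 3 most alike by Pearson's r, paralogs, list genes called in a tested comparison, and known IFNγ targets, of which 1 is not reported here. For the 4 genes, p-values are given only where neither condition compared is DMSO, IFNγ or A-241+IFNγ. In the main fit the filter, the scaling and the spread were still estimated over all libraries, those used for selection included. The call of IFNγ against DMSO served only to define the induced genes. The method was tested on simulated data. Depth was 3417167 to 7856830 counts per library, where 3 counts are 0.382 to 0.878 CPM, and intervals cover counting error only where they rest on counts alone. Promoter sequences are from RefSeq and that of Gm26448 from GENCODE.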

Additional observations from a re-analysis of the deposited data

How the results depend on the processing

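The higher level of Arid5a with A-485+IFNγ than with A-485 kept its call under all 9 alternative settings and with each of the 6 libraries left out (2.44 to 2.73 on the log2 scale). That of Csrnp1 lay between 2.02 and 2.24 with 1 library left out and lost its call without A-485 replicate 1 alone. Acsl1 and Gm26448 passed the threshold in neither tested comparison under any setting. For A-241 against A-485, Csrnp1 passed it with DESeq2 (1.39), with only the 6 libraries compared (1.39) and without both outlying libraries (1.39). A minimum of 10 counts in every library removed Csrnp1, Acsl1 and Gm26448, so that this setting has no value for them. No sign was reversed in these 2 comparisons.

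For the IFNγ response with A-485, 170 genes were higher and 33 lower without both outlying libraries, 154 and 30 with only the 6 libraries compared, and 48 and 4 with at least 10 counts in every library. DESeq2 called 15 lower, and 18 were lower at an adjusted p under 0.05. With 1 library left out 53 to 72 were higher, the fewest without A-485 replicate 2 and next 59 without A-485 replicate 1, and 3 to 5 lower. For A-241 against A-485, 30 genes were higher and 180 lower without both outlying libraries, 10 and 111 with only the 6 libraries compared, 16 and 109 with DESeq2, and 13 and 100 at an adjusted p under 0.05. Limma-voom and total counts each gave 26 lower, no filter on low counts gave 1 higher, and with any 1 library left out 0 to 1 were higher and 18 to 26 lower. The cause of these shifts was not tested.

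The replicate numbers showed no pairing of the libraries. Deviations from the condition means had a median r of -0.018 for equal numbers (-0.804 to 0.477) and of -0.021 for different numbers. Of 18 libraries 5 were closest to their own number. With the replicate number as a block, 73 genes were higher and 5 lower for the IFNγ response with A-485, and 1 was higher and 28 lower for A-241 against A-485. Under the block Arid5a (2.55, adjusted p = 0.00011, edgeR) and Csrnp1 (2.16, adjusted p = 0.00343, edgeR) were still called higher, and the block changed no call of the 4 genes. Depth limits Gm26448 most, with 1 or 2 counts in each DMSO library.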
